A study of Mus musculus with 2 samples.

Results

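The miR-101 family was described in resting mouse macrophages through both arms of its miR-101a and miR-101b hairpins. The members were taken by name and were mmu-miR-101a-3p, mmu-miR-101a-5p, mmu-miR-101b-3p and mmu-miR-101b-5p, 4 of the 1915 mature miRNA names in the count table. Of these, 3 reached 10 counts summed over both libraries, the minimum for a test of a single name, which 588 names of the table reached. mmu-miR-101b-5p did not reach it. Small RNA was sequenced from unstimulated bone marrow-derived macrophages (BMDMs) of wild type C57/BL6 mice 8 weeks old. In the study's methods, BMDMs were grown from the marrow of adult male mice in medium with L-cell conditioned medium, which supplies the growth factor that drives macrophage differentiation. The labels give 2 libraries as separate biological replicates of this single condition, so no treatment or genotype could be compared. The study's figure legend gives n = 3 for its small RNA data, while 2 libraries were used here. The miRNA total was 7322969 counts for replicate 1 and 8094314 counts for replicate 2.

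A miRNA hairpin is cut into a duplex whose 5p and 3p strands, its arms, come from the 5′ and 3′ sides of the stem. Usually 1 arm is kept in the Argonaute protein and guides it to messenger RNAs that pair with the seed, bases 2 to 8 of the miRNA. The 3p arms of miR-101 are known to repress Dusp1, the phosphatase that switches off p38 and JNK signalling in activated macrophages. Other known targets are Ezh2, the methyltransferase of Polycomb repressive complex, Ptgs2, which encodes the inducible cyclooxygenase, and Abca1, the exporter of cellular cholesterol.

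The mature sequences of all 4 members are shown because the annotated isoforms differ in register, with the seed in capitals. mmu-miR-101c, a related name outside the family rule, is shown with them. The sequences were taken from RefSeq for GRCm38.p6, where 1623 of the 1915 names of the table and 468 of the 588 tested names had an entry.
mmu-miR-101a-3p: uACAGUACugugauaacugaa
mmu-miR-101b-3p: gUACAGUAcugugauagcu
mmu-miR-101c: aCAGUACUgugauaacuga
mmu-miR-101a-5p: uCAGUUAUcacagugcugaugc
mmu-miR-101b-5p: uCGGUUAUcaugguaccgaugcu

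The annotated mmu-miR-101b-3p starts 1 base upstream of the start of mmu-miR-101a-3p, so the annotated seeds of both 3p arms are offset by 1 base and share 6 bases. The counts do not hold the starts of the reads, so this offset could not be checked in these libraries. Read in the same register from its hairpin, miR-101b differed from the 21 bases of mmu-miR-101a-3p by a single substitution, A16G, counted from 1 at the 5′ end of mmu-miR-101a-3p. The longest stretch shared by both mature 3p arms had 15 bases. The 5p arms differed by 5 substitutions, A3G, C11U, A12G, G15A and U17C, counted from 1 at the 5′ end of mmu-miR-101a-5p. The first of these lies in the seed. The annotated mmu-miR-101c is identical to bases 2 to 20 of mmu-miR-101a-3p. The sources used here do not give how reads that match several stem-loops were counted, so the division of reads among mmu-miR-101a-3p, mmu-miR-101b-3p and mmu-miR-101c is uncertain.

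No other name with a RefSeq entry had the same bases 2 to 8 as either 3p member. Only miR-144-3p shared bases 2 to 7 with mmu-miR-101a-3p, and only miR-582-5p shared them with mmu-miR-101b-3p. Both are shown with bases 2 to 8 in capitals.
mmu-miR-144-3p: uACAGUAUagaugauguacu
mmu-miR-582-5p: aUACAGUUguucaaccaguuac
miR-144-3p, which comes from an erythroid miRNA cluster, had 2 counts in replicate 1 and 0 in replicate 2, and miR-582-5p had 78 and 94. Among names with an entry, both were far below the 3p members.

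The hairpins are shown with both arms in capitals, since arm use is read from them. The longest stretch that both hairpins share had 20 bases and included the start of the 3p arm.
Mir101a: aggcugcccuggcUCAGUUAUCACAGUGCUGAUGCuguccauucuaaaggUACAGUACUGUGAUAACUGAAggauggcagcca
Mir101b: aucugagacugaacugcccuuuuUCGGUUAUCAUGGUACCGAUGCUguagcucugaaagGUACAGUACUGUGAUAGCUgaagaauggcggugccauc
Mir101a (ENSMUSG00000065451.1) has 83 bases and lies on the minus strand of GRCm38 at chr4:101346945-101347027. In the GENCODE annotation this is within exon 2 of a transcript of the long noncoding RNA gene E130102H24Rik on the same strand. Mir101b (ENSMUSG00000065556.1) has 97 bases and lies on the plus strand at chr19:29135279-29135375. It falls in the intron between exons 8 and 9 of Rcl1, a protein-coding gene for a ribosome biogenesis factor on the same strand. The 2 members' hairpins therefore lie on different chromosomes and in different host transcripts.

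Both 3p arms were abundant in each library, the 5p arm of miR-101a was scarce and the 5p arm of miR-101b was nearly absent. Levels are given in RPM, the count of a name divided by the miRNA total of its library and multiplied by 1000000, with the mean and SD of both libraries. Intervals for a single library are 95% Wilson intervals, a binomial interval for a share. Where a count was 0, a limit of 3 counts is given instead, which is lower than the upper Wilson bound. The intervals and the tests below account for counting error of reads alone and not for variation between replicates. Amplified reads that carry no molecular identifiers may be copies of the same molecule, so the counting error itself may be larger than given.

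mmu-miR-101a-3p had 10889 counts in replicate 1, or 1487 RPM (95% interval 1459 to 1515), and 14130 counts in replicate 2, or 1746 RPM (95% interval 1717 to 1775). Its mean was 1616 ± 183 RPM (SD, n = 2), a share of 0.162% ± 0.0183 of all miRNA counts. It ranked 56 in replicate 1, 52 in replicate 2 and 54 by mean share. It was the most abundant member in both libraries.

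mmu-miR-101b-3p had 5174 counts in replicate 1, or 706.5 RPM (95% interval 687.6 to 726.1), and 5177 counts in replicate 2, or 639.6 RPM (95% interval 622.4 to 657.2). Its mean was 673.1 ± 47.4 RPM (SD, n = 2), a share of 0.0673% ± 0.00474. It ranked 72 in replicate 1, 78 in replicate 2 and 76 by mean share. Both of its libraries lay below both libraries of mmu-miR-101a-3p, and the gap between the means exceeded the SD of either name.

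mmu-miR-101a-5p, the other arm of miR-101a, had 177 counts, or 24.2 RPM (95% interval 20.9 to 28.0), in replicate 1 and 171 counts, or 21.1 RPM (95% interval 18.2 to 24.5), in replicate 2. Its mean of 22.6 ± 2.15 RPM (SD, n = 2) ranked 245. mmu-miR-101b-5p had 0 counts in replicate 1, for a limit of 0.410 RPM (3 counts; upper Wilson bound 0.525 RPM), and 1 count in replicate 2. The levels of the 4 members thus did not overlap between any pair of names, in the order miR-101a-3p, miR-101b-3p, miR-101a-5p, miR-101b-5p.

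**Figure D1:**
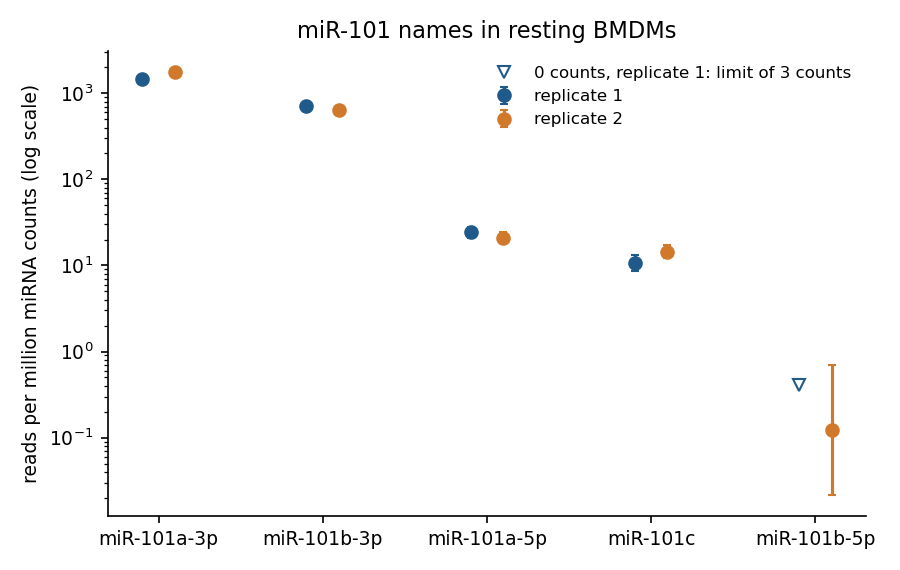
Level of each miR-101 name in each library in RPM (log scale), with 95% Wilson intervals that cover counting error only; the open triangle marks the limit that 0 counts of miR-101b-5p allow in replicate 1. The 3p arm of miR-101a (1487 and 1746 RPM) lies above that of miR-101b (706.5 and 639.6 RPM) in both libraries, and miR-101c lies below miR-101a-5p.

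Summed over the 4 members, the family held 16240 counts in replicate 1 (2218 RPM) and 19479 in replicate 2 (2407 RPM). The mean was 2312 ± 134 RPM (SD, n = 2), or 0.231% ± 0.0134 of all miRNA counts, a level that would rank 45 among the single names. mmu-miR-101a-3p made up 67.1% of the family's counts in replicate 1 and 72.5% in replicate 2. The share of mmu-miR-101b-3p was 31.9% and 26.6%, and that of mmu-miR-101a-5p was 1.09% and 0.878%. The family sum was therefore almost wholly the sum of both 3p arms. For scale, miR-21a-5p, the most abundant miRNA of these cells at 268421.6 ± 16016.8 RPM (SD, n = 2), was 116-fold above the family sum. Adapter ligation and PCR recover some small RNAs more efficiently than others, so ratios between different names are ratios of reads and not of molecules.

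In the order of mean shares, the names just above mmu-miR-101a-3p were miR-342-3p (1780 ± 409 RPM), miR-98-5p (1736 ± 131 RPM) and miR-532-5p (1724 ± 184 RPM). Those just below were miR-181b-5p (1585 ± 17.3 RPM), miR-151-3p (1527 ± 30.3 RPM) and miR-378c (1453 ± 126 RPM). The mean of each of these 6 names lay within 1 SD of mmu-miR-101a-3p, so its place among them was not resolved. The names just above mmu-miR-101b-3p were miR-652-3p (762.9 ± 109.9 RPM), miR-30a-5p (758.2 ± 156.7 RPM) and miR-210-3p (746.5 ± 60.2 RPM), and those just below were miR-99a-5p (619.4 ± 121.6 RPM), let-7e-5p (607.8 ± 88.1 RPM) and miR-107-3p (567.5 ± 29.2 RPM). The libraries of mmu-miR-101b-3p overlapped those of each of these names except miR-107-3p, whose values of 546.9 and 588.2 RPM were below both.

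The isoform ratio compares the 3p arms of both hairpins within a library and needs no scaling between libraries. Intervals of a ratio of counts within a library are exact binomial (Clopper-Pearson) intervals. mmu-miR-101a-3p exceeded mmu-miR-101b-3p 2.11-fold in replicate 1 (95% interval 2.04 to 2.18) and 2.73-fold in replicate 2 (95% interval 2.64 to 2.82), with a mean of 2.42 ± 0.442 (SD, n = 2). The share of mmu-miR-101b-3p among both 3p arms was 32.2% in replicate 1 (95% Wilson interval 31.5 to 32.9) and 26.8% in replicate 2 (95% Wilson interval 26.2 to 27.4). By reads as counted here, the miR-101a form was thus the major form in both libraries. An exact two-sided binomial test against equal counts gave a log10 p of -452.9 in replicate 1 and -938.7 in replicate 2. This covers counting error within each library and not the uncertain division of reads between the names.

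The isoform ratio also differed between the replicates. It was 1.30-fold higher in replicate 2 (95% interval 1.24 to 1.36), a difference of 0.38 on the log2 scale, with p = 1.49e-28 by a two-sided Fisher's exact test of the 4 counts. This test compares these libraries and not conditions. The raw count of mmu-miR-101b-3p was nearly the same in both libraries, and that of mmu-miR-101a-3p was higher in replicate 2. Raw counts leave out the library totals. In RPM, mmu-miR-101b-3p had 706.5 in replicate 1 and 639.6 in replicate 2, and mmu-miR-101a-3p had 1487 and 1746. Whether mmu-miR-101b-3p differed between the libraries depended on the scaling, as given below. Among all 34 pairs of names that differ only in the letter a or b and have at least 100 counts each, the ratio of miR-101-3p was 1 of 20 (58.8%) that differed between the libraries at a Benjamini-Hochberg (BH) adjusted p under 0.05, where BH adjustment controls the share of false calls. Its adjusted p by Fisher's exact test was 1.01e-27. Over the 34 pairs the median absolute shift was 0.16 on the log2 scale, against 0.38 for miR-101-3p, and 11 pairs shifted more. The 34 include 5 pairs whose names were within 10% of equal counts in both libraries, so that their shifts are near 0 by construction. Leaving them out was a choice made after seeing the data. It raises by construction the called share, to 20 of 29, and the median absolute shift, to 0.34. Nothing is read from the called share, while the median is then near the 0.38 of miR-101-3p. The more abundant name was the same in both libraries in 31 of the 34 pairs, miR-101-3p among them, while 1 pair had equal counts and 2 changed order.

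**Figure D2:**
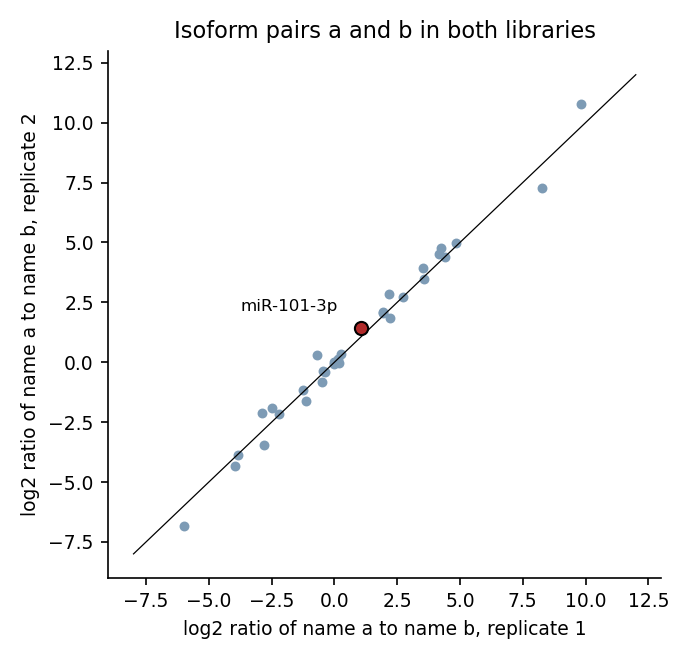
Log2 ratio of name a to name b in replicate 1 (horizontal axis) and replicate 2 (vertical axis) for 34 pairs of names, 1 point each, with the line of equal ratios and miR-101-3p in red. miR-101-3p lies above the line, at a ratio of 2.11 in replicate 1 and 2.73 in replicate 2.

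mmu-miR-101c had 78 counts in replicate 1 (10.7 RPM) and 117 in replicate 2 (14.4 RPM). This was 0.716% of the count of mmu-miR-101a-3p in replicate 1 and 0.828% in replicate 2. The ratio of both names differed between the libraries with p = 0.346 by Fisher's exact test, so a difference was not detectable at this depth. Mir101c (ENSMUSG00000106183.1) is annotated at chr9:3038669-3038743, minus strand.

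Arm use was strongly towards the 3p arm in both hairpins, and more so in miR-101b. Of the counts of both arms of miR-101a, the 3p arm held 98.4% in replicate 1 (95% Wilson interval 98.15 to 98.62) and 98.8% in replicate 2 (95% Wilson interval 98.61 to 98.97), with a mean of 98.6% ± 0.286 (SD, n = 2). mmu-miR-101a-3p exceeded mmu-miR-101a-5p 61.5-fold in replicate 1 (95% interval 53.0 to 71.8) and 82.6-fold in replicate 2 (95% interval 71.1 to 96.6). For miR-101b, 0 of 5174 counts of replicate 1 were from the 5p arm, for a limit on the 5p share of 0.0580% (3 counts; upper Wilson bound 0.0742%), so that the 3p arm was at least 1725-fold higher against 3 counts. In replicate 2, 1 of 5178 counts was from the 5p arm, a share of 0.0193% and a ratio of 5177 with a 95% interval of 928.8 to 204519.6. The arms of both hairpins were used in different proportions in each library, with p = 2.81e-30 in replicate 1 and p = 7.86e-22 in replicate 2 by two-sided Fisher's exact tests.

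The difference between the hairpins was much larger in the 5p arms than in the 3p arms. mmu-miR-101a-5p was at least 59-fold above mmu-miR-101b-5p in replicate 1, against 3 counts, and 171-fold above it in replicate 2 (95% interval 30.3 to 6793). The corresponding ratios of the 3p arms were 2.11 and 2.73.

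The 5p share of miR-101a was 1.60% in replicate 1 (95% Wilson interval 1.38 to 1.85) and 1.20% in replicate 2 (95% Wilson interval 1.03 to 1.39). The ratio of its 3p to its 5p arm was 1.34-fold higher in replicate 2 (95% interval 1.09 to 1.66), with p = 0.00648 by Fisher's exact test and an adjusted p of 0.0152 over 113 hairpins with at least 1000 counts. It was 1 of 51 hairpins (45.1%) whose arm use differed between the libraries at an adjusted p under 0.05. miR-101b, with 1 count of its 5p arm in all, was not called (Fisher's exact test, adjusted p = 1). Over the 113 hairpins the median share of the minor arm was 1.89%. The minor arm had a lower mean share than that of miR-101a in 50 hairpins, and a lower one than that of miR-101b in 5. Among these 5 were miR-143, miR-149, miR-182 and miR-374b, with 0 counts of the minor arm. As the share of miR-101b rests on 1 count, its exact place among the lowest hairpins was not resolved. Arm use of miR-101a was thus near the middle of the hairpins of these cells, while that of miR-101b was near the end.

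**Figure D3:**
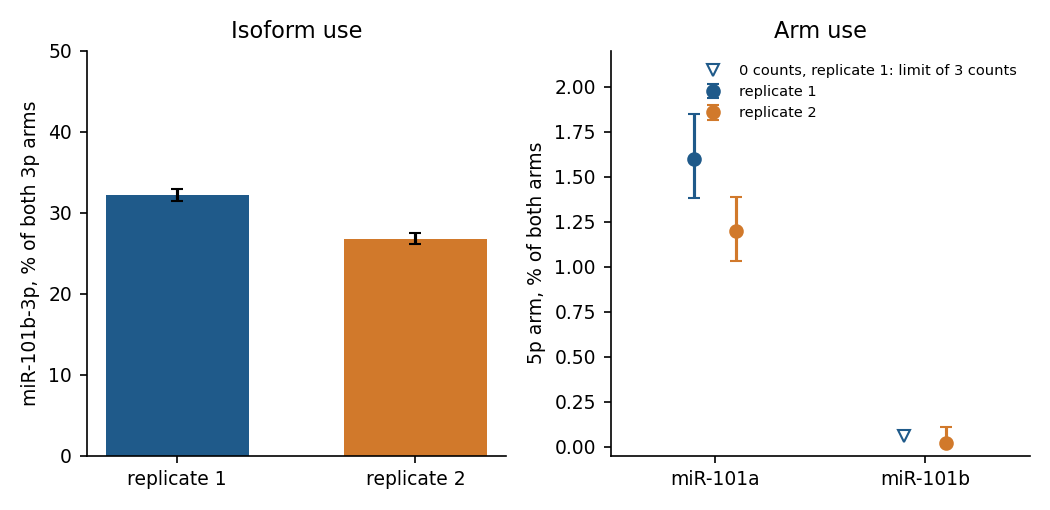
Left, miR-101b-3p as a percent of the counts of both 3p arms in each library (bars, with 95% Wilson intervals), 32.2% and 26.8%. Right, the 5p arm as a percent of both arms of each hairpin (points, with 95% Wilson intervals, and an open triangle for the limit that 0 counts allow), 1.60% and 1.20% for miR-101a and, for miR-101b, a limit of 0.0580% in replicate 1 and a share of 0.0193% in replicate 2.

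The replicate ratio, the RPM of replicate 2 over that of replicate 1, was tested for each name by a two-sided Fisher's exact test of its count against the rest of its library, with BH adjustment over the 588 names. The libraries differed widely, and 260 names (44.2%) were called at an adjusted p under 0.05. With library totals as the scale, 81 names were higher and 179 lower in replicate 2. This split was 122 and 137 under TMM (trimmed mean of M-values) scaling, and 124 and 130 under DESeq2 size factors. The median log2 ratio of all tested names was -0.16 with library totals, -0.03 under TMM and -0.02 under DESeq2, a shift that applies to every name.

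Of the 3 members tested, 2 (both 3p arms) were called with library totals, in opposite directions, against 44.2% of all tested names. Calls depend on the count, and among the 50 names nearest in mean share 44 were called for each 3p arm and 26 for mmu-miR-101a-5p. mmu-miR-101a-3p was higher in replicate 2, with a log2 ratio of 0.23 (Fisher's exact test, adjusted p = 1.75e-35), as were 13.8% of tested names. Its log2 ratio was 0.36 under TMM and 0.38 under DESeq2. mmu-miR-101b-3p was lower in replicate 2 with library totals, with a log2 ratio of -0.14 (Fisher's exact test, adjusted p = 1.60e-06), as were 30.4% of tested names, but it was not called under TMM (log2 ratio -0.01, adjusted p = 0.775) or DESeq2 (8.36e-04, adjusted p = 1). The DESeq2 factors were 1 in both libraries, because 65 of the 776 names with counts in both had equal counts, 50 of them under 10 counts summed, and the median ratio fell among these. With factors from the 588 tested names alone, chosen after seeing the data, the log2 ratio was 0.02 (adjusted p = 0.711). A difference of mmu-miR-101b-3p between the libraries thus depended on the scaling. Relative to the median of all names, the log2 ratio was 0.39 for mmu-miR-101a-3p and 0.02 for mmu-miR-101b-3p.

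mmu-miR-101a-5p had a log2 ratio of -0.19 that was not called (Fisher's exact test, adjusted p = 0.354), or -0.03 relative to the median of all names. mmu-miR-101b-5p was under the count minimum and was not tested. Of the tested names, 123 had a higher log2 ratio than mmu-miR-101a-3p and 275 a higher one than mmu-miR-101b-3p. With library totals, the log2 ratio was larger in size than that of mmu-miR-101a-3p in 22 of the 50 names nearest to it in mean share (SD 0.33), and larger than that of mmu-miR-101b-3p in 39 of its 50 (SD 0.41). The log2 ratio of mmu-miR-101c was 0.44 and was not called (Fisher's exact test, adjusted p = 0.0798).

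**Figure D4:**
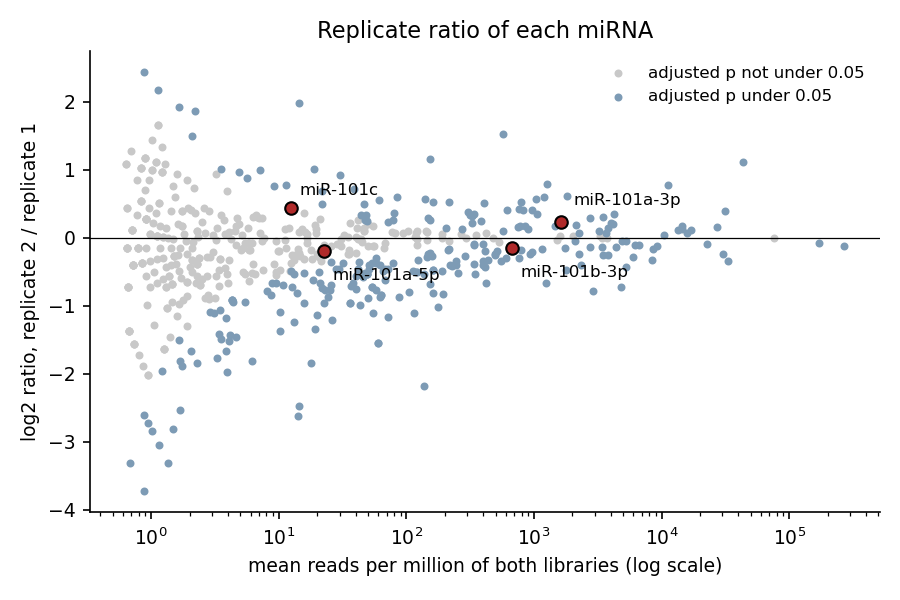
Log2 ratio of replicate 2 to replicate 1 (vertical axis, library totals) against mean RPM (horizontal axis, log scale) for each of the 588 tested names. Names called by Fisher's exact test are in blue and miR-101 names in red. miR-101a-3p lies at 0.23 and miR-101b-3p at -0.14, a value that was -0.01 under TMM and 8.36e-04 under DESeq2 scaling and was called under neither.

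The labelled cell type was checked against miRNA markers. The 4 macrophage and myeloid markers, miR-223-3p, both arms of miR-142a and miR-511-3p, had a summed level of 49536.2 RPM in replicate 1 and of 37713.8 RPM in replicate 2. The most abundant was miR-142a-5p, with 37030.5 and 29252.1 RPM. All 4 were lower in replicate 2 (Fisher's exact test, adjusted p under 0.05), also under TMM and DESeq2 scaling, while mmu-miR-101a-3p was higher there. Over all tested names, 30.4% were called lower with library totals, 137 of 588 under TMM and 130 of 588 under DESeq2. miR-511-5p, the other arm of miR-511 and named after its values were seen, was higher in replicate 2 (65.4 and 77.1 RPM, log2 ratio 0.24, Fisher's exact test, adjusted p = 0.0182). The part of these differences in the replicate ratio of miR-101 was not tested.

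Names on the lists of other cell types ranged from 0 counts to the level of miR-486a-5p, which was above the macrophage marker miR-511-3p (443.8 and 350.6 RPM). The erythroid names miR-451a and miR-144-3p had 7 and 2 counts in replicate 1 and 8 and 0 in replicate 2, and nearly all of the erythroid sum of 541.4 and 456.0 RPM came from miR-486a-5p (540.2 and 455.0 RPM). The lymphoid name miR-150-5p had 27.6 and 10.9 RPM. Sums were 62.5 and 46.2 RPM for both endothelial arms of miR-126a, 50.1 and 42.4 RPM for 3 names of fibroblasts and stroma, and 152.1 and 165.3 RPM for 4 epithelial names, of which miR-200b-3p was the most abundant (67.7 and 102.2 RPM). Skeletal muscle miR-206-3p and neuronal miR-124-3p had 0 counts in both libraries. Each marker sum outside the myeloid list was below the level of either 3p member of miR-101 in the same library.

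The level of miR-101 was set beside that of other miRNAs known to act on its targets. Of 7 names known to act on Abca1, 2 exceeded mmu-miR-101a-3p by mean level and 5 were below mmu-miR-101b-3p. miR-27b-3p, at 76465.5 ± 124.1 RPM (SD, n = 2), was 47.3-fold above mmu-miR-101a-3p, and miR-27a-3p had 5255 ± 118 RPM. miR-106b-5p (412.7 ± 39.2 RPM), miR-128-3p (327.9 ± 50.3 RPM) and miR-33-5p (25.2 ± 9.21 RPM), which is encoded in the Srebf2 gene of cholesterol synthesis, were below both 3p members. miR-144-3p and miR-758-3p had 2 and 0 counts in replicate 1 and 0 in replicate 2. Scaled by library totals, 1 of the 5 names tested was higher in replicate 2 and 3 were lower, while TMM or DESeq2 scaling gave 3 higher and 1 lower. Over all tested names these shares were 13.8% higher and 30.4% lower with library totals, with 122 higher and 137 lower of 588 under TMM. The median log2 ratio of the 5 names was -0.05 with library totals, 0.08 under TMM and 0.10 under DESeq2, against -0.16, -0.03 and -0.02 over all tested names.

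Of 5 names known to act on Ezh2, 3 exceeded mmu-miR-101a-3p by mean level and 2 were below mmu-miR-101b-3p. miR-26a-5p had 14492.0 ± 1213 RPM (SD, n = 2), 8.97-fold more than mmu-miR-101a-3p, and miR-26b-5p had 3643 ± 112 RPM. miR-98-5p, a let-7 relative, lay within the spread of mmu-miR-101a-3p as given above. It was above mmu-miR-101a-3p in replicate 1 (1829 against 1487 RPM) and below it in replicate 2 (1643 against 1746 RPM). miR-138-5p (67.4 ± 20.2 RPM) and miR-214-3p (3.52 ± 2.36 RPM) were far below. In replicate 2, 2 were higher and 3 lower with library totals, and 2 were higher and 2 lower under TMM or DESeq2 scaling, beside 13.8% higher and 30.4% lower over all names with library totals and 122 and 137 of 588 under TMM. The median log2 ratio was -0.15 with library totals, -0.03 under TMM and -0.01 under DESeq2, beside the -0.16, -0.03 and -0.02 of all names.

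The list of miRNAs known to rise after Toll-like receptor stimulation of macrophages held 8 names. By mean level in these unstimulated cells, 3 exceeded mmu-miR-101a-3p and 5 were below mmu-miR-101b-3p. The 3 were miR-21a-5p, miR-146a-5p (43626.3 ± 22659.9 RPM, SD, n = 2) and miR-146b-5p (1823 ± 543 RPM), and the last differed from mmu-miR-101a-3p by less than its SD. In replicate 1 miR-146b-5p (1439 RPM) was below mmu-miR-101a-3p (1487 RPM), and in replicate 2 it was above (2207 against 1746 RPM). The level of miR-146a-5p was 27603.3 RPM in replicate 1 and 59649.3 RPM in replicate 2. miR-155-5p had 71.7 ± 38.6 RPM and miR-147-3p had 65.3 ± 15.6 RPM, followed by miR-132-3p (35.5 ± 3.15 RPM), miR-212-3p (3.86 ± 2.84 RPM) and miR-9-5p (1.5 ± 0.198 RPM). Unlike miR-146a-5p and miR-146b-5p, miR-155-5p was lower in replicate 2 (99 RPM in replicate 1 and 44.35 RPM in replicate 2). Both 3p members of miR-101 were thus above miR-155-5p, a miRNA induced early by lipopolysaccharide, in both libraries. In replicate 2, 2 of the 8 were higher and 4 lower with library totals, and 3 were higher and 3 lower under TMM or DESeq2 scaling, where all names had 13.8% higher and 30.4% lower with library totals and 122 and 137 of 588 under TMM. The median log2 ratio was -0.23 with library totals, -0.10 under TMM and -0.08 under DESeq2, against the same medians of all names. These 3 lists describe the setting of miR-101 and were not tested as sets.

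**Figure D5:**
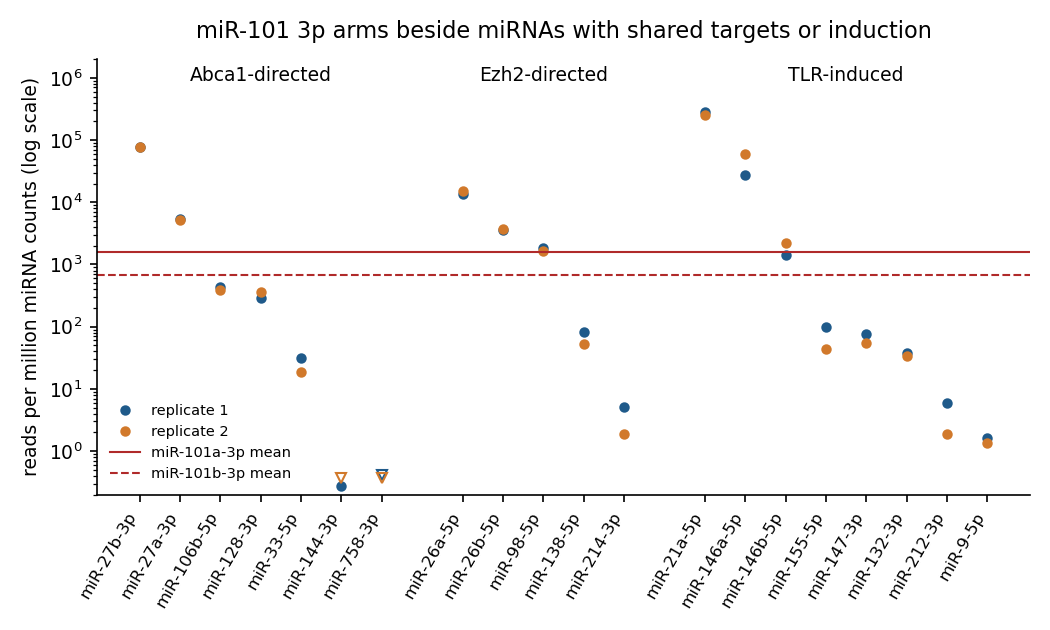
Level in RPM (log scale) of each miRNA of 3 lists in each library (points), with open triangles for the limit that 0 counts allow and lines at the means of miR-101a-3p (1616 RPM) and miR-101b-3p (673.1 RPM). Of the names on the lists, 2 of 7, 3 of 5 and 3 of 8 have a higher mean than miR-101a-3p.

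As annotated, the offset of the seeds gives each 3p member a different match to its seed in messenger RNAs. Matches to 1 seed alone rest on that annotation. The match to bases 2 to 8 of mmu-miR-101a-3p is GTACTGT and that of mmu-miR-101b-3p is TACTGTA. They overlap in TACTGT, the match to bases 2 to 7 of mmu-miR-101a-3p, and GTACTGTA holds both. As mmu-miR-101a-3p starts with U, TACTGTA is also the match to its bases 1 to 7. The sense strand of the longest annotated 3′ UTR of each gene of GRCm38 was searched, and the known targets are shown with the matching bases in capitals.
Dusp1: attttgtgtttgcGTACTGTActa
Ezh2, first match: tcaggaaccttgaGTACTGTgggc
Ezh2, other match: ctgaatttgcaaaGTACTGTAaca
Ptgs2: attatcagctgagGTACTGTAtat
Abca1, first match: aagaacaaactggaTACTGTActg
Abca1, other match: aacaaacctcaaacTACTGTAttt
The site in the Dusp1 3′ UTR (690 bases) lies at chr17:26505789-26505812 on the minus strand and matches both seeds. Those in the Ezh2 3′ UTR (402 bases) lie at chr6:47530472-47530495 and chr6:47530417-47530440 on the minus strand, where the first matches the seed of mmu-miR-101a-3p alone and the other matches both. The site in the Ptgs2 3′ UTR (2445 bases) lies at chr1:150107388-150107411 on the plus strand and matches both seeds. The Abca1 3′ UTR (3156 bases) had 0 matches to GTACTGT and 2 to TACTGTA, at chr4:53033817-53033840 and chr4:53031387-53031410 on the minus strand. The shorter TACTGT occurred 1 time in the 3′ UTR of Dusp1, 2 times in Ezh2, 2 in Ptgs2 and 4 in Abca1, the sites above included. Sites with TACTGT alone are not shown.

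The 7-base matches were more frequent among all genes than the 8-base match. Of 20791 3′ UTRs of at least 30 bases, 9.43% held GTACTGT, 12.2% held TACTGTA and 2.92% held GTACTGTA. The shorter TACTGT was held by 34.0%. Among 3′ UTRs within 20% of the gene's own in length, GTACTGTA was found in 1.65% for Dusp1, 0.559% for Ezh2 and 4.67% for Ptgs2, and TACTGTA in 24.8% for Abca1. Among those of 0.5 to 2 times the length, these shares were 1.59%, 0.859%, 4.63% and 23.1%. Both ranges were chosen after seeing the data. A match describes letters of the annotated sequence. Messenger RNA was not measured in these libraries, and repression of these genes was not tested.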

How the data were processed

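Small RNA libraries of 2 biological replicates of unstimulated BMDMs were analysed. After trimming, the authors aligned reads to the mouse stem-loops of miRBase using Bowtie, and they deposited raw counts per mature name with replicates not pooled. Any other library was not analysed here. The miRBase release, how stem-loop alignments became mature names, allowed mismatches and the treatment of reads with several matches are not given in the sources used here. DESeq2 is named in the submitters' processing notes without a role.

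Shares were counts over library totals. Fisher's exact tests, BH adjustment over 588 names with at least 10 counts summed, and Wilson intervals were computed with Python 3.11.15 and scipy 1.17.1. Intervals of a change in a ratio between libraries are normal intervals of the log odds ratio. Alternative scalings came from edgeR 4.0.16 (TMM) and DESeq2 1.42.0 in R 4.3.3. Other alternatives were pooled reads, other count minimums, each library alone, totals without miR-21a-5p, both arms summed and miR-101c added. DESeq2 factors over tested names and the count of pairs without near-equal names were added after seeing the data. Gene positions and 3′ UTRs came from the GENCODE annotation of GRCm38.

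Members and lists were chosen with earlier results of these data known. Named miRNAs were the members, miR-101c, names sharing bases 2 to 8 or 2 to 7 with a 3p member, the 3 nearest names on each side of each 3p member in mean share, miRNAs known to act on Abca1 or Ezh2 or to rise after Toll-like receptor stimulation, and cell type markers.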

Additional observations from a re-analysis of the deposited data

How the results depend on the processing

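Of 73 recomputed values, 66 kept their direction and side of the threshold or moved by less than the spread between replicates. Some of the settings behind this count could not move the value, as given below. Without miR-21a-5p in the totals, which shrinks the denominator by construction, the share rose to 0.221% for miR-101a-3p, 0.0921% for miR-101b-3p, 0.316% for the family and 0.0031% for miR-101a-5p. The log2 replicate ratio of miR-101b-3p was -0.14 with library totals, -0.0142 under TMM (adjusted p = 0.775), 8.36e-04 under DESeq2 size factors (adjusted p = 1), which were 1 in both libraries, and 0.0177 with DESeq2 factors over tested names (adjusted p = 0.711), chosen after seeing the data. None of these 3 differs from 0 beyond counting error. Under the other alternatives its adjusted p ran from 1.52e-10 to 2.76e-06. Between 243 and 262 names were called, against 260 of 588. The number of names tested changed with the count minimum. Without a minimum 247 of 1013 were called, and with at least 10 counts in every library 243 of 448. Ratios within a library do not depend on scaling. No paired analysis was possible because both samples belong to a single condition.

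With 2 libraries, leaving 1 out cannot move a mean by 1 SD, so that setting says little. With library totals the counting intervals of both 3p arms were narrower than the difference between the libraries; for miR-101b-3p this did not hold under TMM or DESeq2. Counts limit miR-101a-5p, at 177 and 171, and miR-101b-5p, whose 1 count in all allowed no replicate ratio and no value under a minimum of 10 counts in every library.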
